A study of Mus musculus with 11 samples.

Results

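The replication-dependent histone genes encode the core histones and linker histones that package newly made DNA. They were followed here through conditional deletion of the H3 lysine demethylase genes Kdm4a, Kdm4b and Kdm4c in mouse leukaemia cells. Members were the array probes whose RefSeq accession leads to a gene with a current symbol or synonym that starts with Hist1h, Hist2h, Hist3h or Hist4h. This gave 46 genes of the 20972 named on the array, with 52 of its 55681 probes. They are 46 of the 70 genes that meet the rule in the gene table, and the other 24 had no probe here. By type there were 6 probes for H1, 15 for H2a, 11 for H2b, 7 for H3 and 13 for H4, and 49 of the 52 were bright enough to test.

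All samples were L-GMP, leukaemic granulocyte-macrophage progenitors transformed with the MLL-AF9 fusion oncogene, of C57BL/6 background. They carried floxed Jmjd2a, Jmjd2b and Jmjd2c alleles (the older names of Kdm4a, Kdm4b and Kdm4c) and Rosa26::CreERT2, a Cre recombinase that 4-hydroxytamoxifen (OHT) switches on, and grew with 20% FBS and 10 ng/ml of the cytokine IL-3. RNA was hybridised to 1-colour Agilent arrays from cells before OHT (0 h, 4 arrays) and after 48 h (4 arrays) or 96 h (3 arrays) in 500 nM OHT. The series design names 4 cell lines, and the labels do not tie an array to a line, so p-values measure the spread between these arrays. All groups carried the same floxed alleles and recombinase, so deletion, exposure to OHT and active Cre, and time in culture cannot be told apart. The 96 h arrays were on a slide of their own while 0 h and 48 h shared another, so slide and time cannot be told apart at 96 h either.

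Replication-dependent histone genes lie in clusters, have no introns in most cases and are transcribed mainly in S phase, when DNA is copied. Their mRNAs typically end in a stem-loop bound by Slbp in place of a poly(A) tail, and are degraded quickly when DNA synthesis stops. H2a, H2b, H3 and H4 form the nucleosome core around which DNA is wound, and H1 binds the linker DNA between nucleosomes. In dividing cells such as myeloid progenitors their levels are known to follow the cell cycle. Labelling kits of the kind the labels name are usually designed to start cDNA from poly(A) tails, a step the labels do not describe. If it was so here, a change in tail use and a change in amount cannot be told apart.

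RefSeq promoter windows of build GRCm38.p6, each 300 bases long from 250 before to 50 after the annotated start, were found for 62 of the 70 genes. Those of 7 genes are shown, 5′ to 3′ on the gene's own strand. They include the largest rises of H3, H1 and H2b, the H2a gene that stayed higher at both times and the 2 measured genes of the Hist3 cluster. These genes are described below. The other is an H4 gene, H4c12, whose 2 probes were not called in any comparison and which is not described further. Capitals mark matches, on either strand, to TATAAA (the TATA box), CCAAT (the site of NF-Y), ATTTGCAT (the octamer known from H2b promoters), AAACACA (the H1 box), GCGCGAAA (an E2F-like site) and CGGTCC (part of an H4 promoter element). The windows lie at chr13:23535168-23535467 (+) for H3c8, chr13:21780576-21780875 (-) for H1f5, chr3:96219635-96219934 (+) for H2ac21, chr13:23571150-23571449 (+) for H2bc8, chr13:21750504-21750803 (-) for H4c12, chr11:58954435-58954734 (+) for H2aw and chr11:58948661-58948960 (+) for H2bu2.
H3c8: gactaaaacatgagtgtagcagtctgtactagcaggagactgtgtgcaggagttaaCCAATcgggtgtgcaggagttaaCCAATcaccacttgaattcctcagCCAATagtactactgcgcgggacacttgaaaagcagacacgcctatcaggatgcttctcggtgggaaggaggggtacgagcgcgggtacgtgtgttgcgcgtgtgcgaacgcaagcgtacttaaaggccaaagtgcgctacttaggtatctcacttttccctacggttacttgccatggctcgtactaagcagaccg
H1f5: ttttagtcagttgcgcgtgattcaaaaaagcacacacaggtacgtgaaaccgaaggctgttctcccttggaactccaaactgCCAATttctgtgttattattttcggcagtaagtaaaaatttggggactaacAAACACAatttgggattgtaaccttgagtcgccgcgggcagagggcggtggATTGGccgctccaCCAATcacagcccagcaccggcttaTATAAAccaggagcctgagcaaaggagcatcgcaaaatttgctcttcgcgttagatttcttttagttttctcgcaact
H2ac21: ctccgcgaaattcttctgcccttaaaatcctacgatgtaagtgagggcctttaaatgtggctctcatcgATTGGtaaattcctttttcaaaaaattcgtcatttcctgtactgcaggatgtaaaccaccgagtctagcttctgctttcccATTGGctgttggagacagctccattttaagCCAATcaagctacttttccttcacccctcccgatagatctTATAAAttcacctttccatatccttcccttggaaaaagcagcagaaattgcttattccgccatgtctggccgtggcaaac
H2bc8: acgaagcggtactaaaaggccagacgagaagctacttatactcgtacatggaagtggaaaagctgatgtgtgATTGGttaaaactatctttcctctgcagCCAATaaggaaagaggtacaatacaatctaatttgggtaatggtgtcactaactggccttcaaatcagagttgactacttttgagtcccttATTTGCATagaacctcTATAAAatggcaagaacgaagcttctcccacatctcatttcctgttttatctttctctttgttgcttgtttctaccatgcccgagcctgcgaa
H4c12: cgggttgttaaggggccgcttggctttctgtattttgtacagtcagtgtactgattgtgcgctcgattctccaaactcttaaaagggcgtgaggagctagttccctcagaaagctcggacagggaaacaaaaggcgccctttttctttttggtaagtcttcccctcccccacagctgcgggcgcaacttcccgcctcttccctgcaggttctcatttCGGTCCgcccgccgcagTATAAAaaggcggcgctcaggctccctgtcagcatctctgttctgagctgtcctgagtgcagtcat
H2aw: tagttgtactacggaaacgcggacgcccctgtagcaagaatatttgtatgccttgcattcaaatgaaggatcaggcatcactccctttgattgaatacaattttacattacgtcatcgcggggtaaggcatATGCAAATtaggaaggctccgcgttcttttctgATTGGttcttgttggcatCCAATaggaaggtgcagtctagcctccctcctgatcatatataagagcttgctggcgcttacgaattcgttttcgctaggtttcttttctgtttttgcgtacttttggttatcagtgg
H2bu2: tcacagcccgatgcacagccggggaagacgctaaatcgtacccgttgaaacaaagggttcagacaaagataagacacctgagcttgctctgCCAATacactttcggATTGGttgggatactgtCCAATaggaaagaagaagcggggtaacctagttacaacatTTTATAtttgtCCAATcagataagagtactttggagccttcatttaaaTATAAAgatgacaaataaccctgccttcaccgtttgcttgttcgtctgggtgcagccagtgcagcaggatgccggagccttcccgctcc

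CCAAT stood in 54 of the 63 member windows, 85.7%, against 37.4% of all 32851 windows in the table. All 6 H1, 18 H2a, 17 H2b and 10 H3 windows held it, but 3 of the 12 H4 windows did. TATAAA was in 55.6% of member windows and 13.6% of all windows. The octamer ATTTGCAT was found in 7 H2a and 7 H2b windows and in no other type (1.74% of all windows). AAACACA was in 5 of 6 H1, 2 of 18 H2a and 2 of 17 H2b windows (7.18% of all). GCGCGAAA was found in 14.3% of member windows, in 5 H2a and 4 H2b windows, against 0.323% of all. CGGTCC was in 5 of 12 H4, 3 of 10 H3 and 2 of 17 H2b windows, and in 10.2% of all. Some windows share bases: 20 of the 63 lie in 10 pairs of overlapping windows, so they are not separate observations. A match describes letters, not bound sites.

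As a check of the labels, the brightest probe of each floxed gene fell at 48 h, to 33.1% of its 0 h signal for Kdm4a, 10.2% for Kdm4b and 3.24% for Kdm4c (limma adjusted p 7.28e-07 to 0.00101). A dimmer Kdm4a probe was at 85.4% at 48 h, not called, and fell to 36.3% at 96 h. The share of probes well above background ran from 49.5% on a 48 h array to 75.5% on a 96 h array. All 11 progenitor and leukaemia markers (Mpo, Elane, Kit, Hoxa9 and others) were above background on every array. At 48 h against 0 h, 9.32% of all tested probes were called higher and 7.05% lower. Of these 11 markers 1 was called higher and 2 lower, with a median difference of 0.06. Of the markers of other cells, 6 of 10 for B and T cells, 5 to 6 of 8 for erythroid cells and 3 to 4 of 7 for stroma were above background on all arrays of a group. For monocytes and macrophages, 4 of 9 markers with a probe were so in each group. None of the 7 tested was called at 48 h, with a median difference of 0.19. Of 11 mature neutrophil markers, 4 were higher at 96 h than at 0 h, against 5.53% of all probes. The median level of the 11, centred on each probe's 0 h mean, was -1.12 to 1.22 on the 0 h arrays and 2.32 to 3.46 at 96 h. The 11 neutrophil markers had a median difference of 0.88 at 48 h, with 1 called higher. The 6 tested erythroid markers had a median difference of 0.50 at 48 h (1 called higher), and their centred median was -0.25 to 0.14 on the 0 h arrays and 0.26 to 0.59 on the 48 h arrays, without overlap. For the 8 tested B and T cell markers the difference was 0.31 (1 called higher), with centred medians of -0.03 to 0.07 at 0 h and 0.07 to 0.53 at 48 h. The part of these markers in the histone differences was not tested. In bulk RNA, fewer cells of a type and less RNA per cell cannot be told apart.

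At 48 h against 0 h, 24 of the 49 tested histone probes were higher, 3 were lower and 22 were not called (limma over all 34273 tested probes, adjusted p under 0.05), against 9.32% of all probes higher and 7.05% lower. The median difference of the members was 0.73 on the log2 scale, against 0.13 for all probes, and 43 of 49 differences were positive. All 48 h arrays lay above all 0 h arrays for 23 members, where 13.4% of all probes did, and below them for 3, where 9.38% did. By type, 6 of 7 H3, 3 of 5 H1, 10 of 15 H2a, 5 of 10 H2b and 0 of 12 H4 probes were higher, with median differences of 0.89, 0.81, 0.79, 0.65 and 0.40. These medians kept their sign, and stayed above the median of all probes, under all 5 other scalings of the signal, with H3 between 0.66 and 0.95 and H4 between 0.18 and 0.47. On the same arrays, the median difference was 0.88 for neutrophil, 0.50 for erythroid and 0.31 for B and T cell markers. It was 0.19 for monocyte and macrophage, 0.06 for progenitor and leukaemia and -0.06 for stromal markers. The number called depended more on the setting, for members and for all probes. Scaling by the array median moved the median of all probes from 0.13 to -0.10. It left 3 members higher and 3 lower (6.12% each), against 1.45% and 6.78% of all probes. Quantile normalization left 13 and 3 (26.5% and 6.12%), against 6.17% and 7.87%. Omission of single arrays gave 9 to 27 higher (18.4% to 55.1%, against 4.61% to 10.6% of all probes). There were 11 without 0 h replicate 1, 15 without 0 h replicate 3 and 10 without 0 h replicate 4. Without 48 h replicate 1 there were 11, and without 48 h replicate 4 there were 9.

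**Figure D1:**
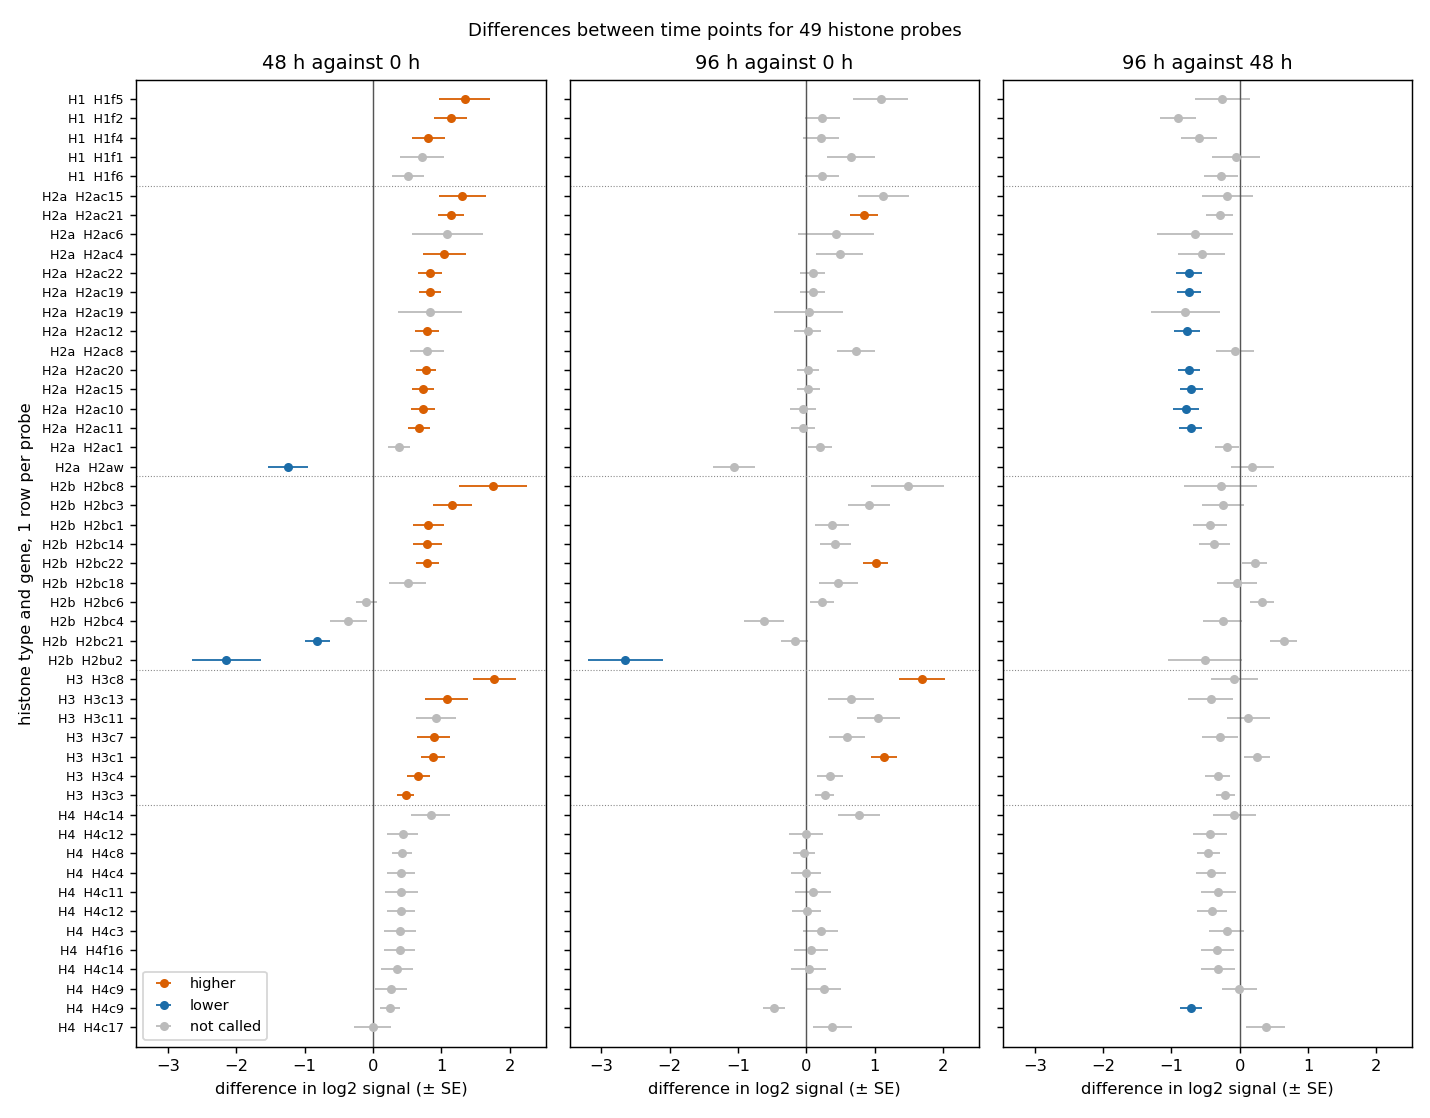
Difference in scaled log2 signal (horizontal axis, with limma's SE) for the 49 tested histone probes, 1 row per probe ordered by histone type, in the 3 comparisons. Orange and blue mark probes called higher or lower; at 48 h against 0 h, 24 are orange, 3 are blue and the 12 H4 rows are all grey.

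Values are given below as scaled log2 signal, which is log2 of a probe's processed intensity minus the 75th percentile of its array. They compare 1 probe between arrays and not 1 gene with another.

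Histone H3 wraps DNA together with H4 and carries the lysine residues that the Kdm4 enzymes demethylate. H3c8 (Hist1h3g) showed the largest rise. Its scaled signals were 0.14, 1.91, 1.24 and 0.96 at 0 h, 3.02, 2.43, 2.97 and 2.93 at 48 h, and 2.99, 2.67 and 2.60 at 96 h. All arrays after OHT lay above all arrays before it. The rise was 3.42-fold at 48 h (log2 1.77 ± 0.32 SE, limma adjusted p = 0.00783) and 3.24-fold at 96 h (1.69 ± 0.34, adjusted p = 0.0218). The 48 h call held when any single array was left out; the 96 h call was lost without 0 h replicate 4 or any 1 of the 3 arrays at 96 h (adjusted p 0.0521 to 0.0679).

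H3c1 (Hist1h3a) had signals of 0.32, 0.97, 0.60 and 0.30 at 0 h, 1.65, 1.26, 1.43 and 1.36 at 48 h, and 1.93, 1.74 and 1.39 at 96 h. The groups before and after OHT did not overlap. The rise was 1.84-fold at 48 h (adjusted p = 0.0116) and 2.20-fold at 96 h (adjusted p = 0.0131), and both calls held without any single array. Another 4 H3 genes were called higher at 48 h, each with a call lost on some omissions. H3c13 differed by 1.08 on the log2 scale and its call was lost in 9 of the 11 omissions, H3c7 by 0.89 (lost in 7), H3c4 by 0.67 (lost in 4) and H3c3 by 0.48 (lost in 6). H3c11 differed by 0.93 and missed the threshold (adjusted p = 0.0542), with signals of 1.03, 2.30, 1.65 and 1.12 at 0 h against 2.86, 2.29, 2.34 and 2.31 at 48 h. The top 0 h value of H3c11 lay just above its lowest 48 h value.

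Among the linker histones, H1f2 (Hist1h1c), a somatic H1 also known to give polyadenylated mRNA, was -0.06, 0.80, 0.71 and 0.60 at 0 h and 2.05, 1.56, 1.64 and 1.35 at 48 h. The groups did not overlap, and the difference was 2.20-fold (log2 1.14 ± 0.24 SE, adjusted p = 0.0143, held without any single array). At 96 h its signals were 1.20, 0.38 and 0.66, which overlap the 0 h values. H1f5 (Hist1h1b), another somatic H1, had signals of 4.12, 6.15, 5.51 and 4.55 at 0 h and 6.45, 6.17, 6.52 and 6.58 at 48 h. The highest 0 h array, at 6.15, was close to the lowest 48 h array, at 6.17. The rise of 1.34 (adjusted p = 0.0359) lost its call in 7 of the 11 single-array omissions: each of the 4 arrays at 48 h, and each at 0 h apart from replicate 2. H1f4 rose by 0.81 (adjusted p = 0.048), a call lost in 9 of 11. H1f1 and the testis form H1f6 differed by 0.72 and 0.51 and were not called.

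For H2a, H2ac21 (Hist2h2ab) went from -1.96, -1.38, -1.87 and -2.10 at 0 h to -0.27, -0.80, -0.75 and -0.94 at 48 h, and to -1.04, -0.79 and -1.13 at 96 h. All arrays after OHT were above all 0 h arrays. It rose 2.20-fold at 48 h (adjusted p = 0.00584, held without any single array) and 1.80-fold at 96 h (adjusted p = 0.0345, lost on omission of any 96 h array, or any at 0 h apart from replicate 2). H2ac4 rose by 1.04 (adjusted p = 0.048), a call lost in 10 of 11 omissions. H2ac15 has 2 probes. The dimmer one rose by 1.31 at 48 h, a call lost in 6 of 11 omissions. The brighter one rose by 0.73, a call that held without any single array. At 96 h against 0 h their differences were 1.13 and 0.03, neither called, so the probes disagree there. H2ac6 and H2ac8 differed by 1.09 and 0.79 at 48 h, and the germ-cell gene H2ac1 by 0.38, none of them called.

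A group of 7 H2a probes, for H2ac10, H2ac11, H2ac12, H2ac15, H2ac19, H2ac20 and H2ac22, were within 1.5 log2 units of the brightest member and were grouped after their values had been seen. These genes are near-identical copies, and probe sequences were not used here, so their signals may come from the same transcripts. Their median scaled signal was 9.27, 9.88, 9.89 and 9.51 on the 0 h arrays, 10.39, 10.12, 10.43 and 10.51 at 48 h and 9.47, 9.79 and 9.58 at 96 h. On this scale the 48 h arrays were the highest, and the 96 h arrays lay within the range of the 0 h arrays. The place of the 96 h arrays depended on the scaling: against 0 h the 7 probes differed by -0.05 to 0.09 here, by -0.44 to -0.29 with array-median scaling and by 0.26 to 0.40 after quantile normalization, with none called. In the deposited table they differed by 0.41 to 0.51, and 3 were called higher (lowest adjusted p = 0.0237). At 48 h against 0 h, the 44 other probes as bright had a median difference of 0.26 (0.10 to 0.84), with 10 called higher and 0 lower. All 7 H2a probes were higher at 48 h, by 0.67 to 0.84. Before scaling, their median intensity was 103764 to 191672 at 0 h and 157746 to 184502 at 48 h, which overlap, while the 75th percentile of the arrays was 149 to 204 at 0 h and 108 to 147 at 48 h. Omission of single arrays left 4 to 7 of them called (4 without 48 h replicate 4), and other scalings left 2 after quantile normalization, 3 in the deposited table and 0 with array-median scaling, all with positive differences (0.26 to 0.90 over the scalings).

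Histone H2b pairs with H2a in the nucleosome, and its members moved in both directions. H2bc8 (Hist1h2bg) had signals of -3.63, -0.96, -1.85 and -1.75 at 0 h and 0.25, -0.89, -0.26 and -0.25 at 48 h. The nearest arrays of the groups were at -0.96 and -0.89, and 0 h replicate 1 was far below the rest. The rise of 1.76 ± 0.50 SE (3.39-fold, adjusted p = 0.0381) lost its call in 6 of 11 omissions (0 h replicates 3 and 4, all 48 h arrays except replicate 2, and 96 h replicate 3). H2bc3 differed by 1.16, with its call lost in 5 of 11 omissions. The testis form H2bc1 differed by 0.81 (lost in 8), and its groups overlap. H2bc14 differed by 0.79 (lost in 6). H2bc22 (Hist1h2bp) rose at both times. Its signals were -3.51, -3.82, -3.41 and -3.45 at 0 h, -2.62, -3.06, -2.86 and -2.48 at 48 h and -2.23, -2.80 and -2.56 at 96 h, with no overlap between before and after. The differences were 1.73-fold (adjusted p = 0.0143) and 2.02-fold (adjusted p = 0.0151), and both held without any single array. Over the 12 other settings they shrank to as little as 0.16 at 48 h and 0.19 at 96 h on the log2 scale. Array-median scaling ended both calls (adjusted p = 0.0732 and 0.063), and the 96 h call was also lost with only the groups compared (adjusted p = 0.0506).

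The 3 members that fell at 48 h were 1 H2a and 2 H2b genes. H2aw (Hist3h2a) and H2bu2 (Hist3h2ba) are the 2 members measured from the small Hist3 cluster, which lies apart from the Hist1 and Hist2 clusters. H2aw was at 1.21, 1.07, 1.84 and 1.90 at 0 h, at 0.56, 0.51, 0.21 and -0.23 at 48 h and at 1.01, 0.47 and -0.14 at 96 h. All arrays after OHT were below all 0 h arrays. The fall was 2.37-fold at 48 h (log2 -1.24 ± 0.29 SE, adjusted p = 0.0197, a call lost when 0 h replicate 3, 0 h replicate 4 or 48 h replicate 4 was left out), and the difference at 96 h of -1.06 was not called (adjusted p = 0.0637).

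H2bu2 was at -2.50 ± 0.36 (SD, n = 4) at 0 h, with -2.78 as its lowest array, at -3.83, -3.77, -5.26 and -5.70 at 48 h and at -4.07, -5.60 and -5.76 at 96 h. All arrays after OHT were lower than all before it. The probe was clear of background on all 4 arrays at 0 h, on 2 at 48 h and on 1 at 96 h, so its low values are near the detection limit. It fell by 2.15 on the log2 scale at 48 h (adjusted p = 0.0203, lost when 0 h replicate 3 or 48 h replicate 4 was left out) and by 2.65 at 96 h (adjusted p = 0.0229, lost on omission of replicate 3 or 4 at 0 h, or of 2 or 3 at 96 h). Over 11 other settings the 48 h difference ran from -2.37 to -0.45, and the call was kept in each. Of the genes next to this cluster, Trim11, Trim17 and Zfp39 differed by -0.13, 0.33 and -0.20 at 48 h and were not called, and Rnf187 rose by 0.33 (adjusted p = 0.0303).

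H2bc21 (Hist2h2be), an H2b gene known for polyadenylated mRNA in cells that have left the cycle, had signals of -1.80, -1.75, -1.69 and -1.48 at 0 h and -2.24, -2.27, -2.62 and -2.85 at 48 h. The groups did not overlap, and it fell by 0.82 (adjusted p = 0.0171, held without any single array). At 96 h it was at -1.45, -2.15 and -1.95, which overlaps the 0 h range, and the difference from 0 h was -0.17. H2bc4 and H2bc6 differed by -0.36 and -0.10 at 48 h and were not called. The gene spans of H2bc21, H2bc4, H2bc6 and H2bc22 are over 2000 bases, against 375 to 903 bases for all members outside the 5 long ones, so these gene models reach well past a compact histone gene.

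**Figure D2:**
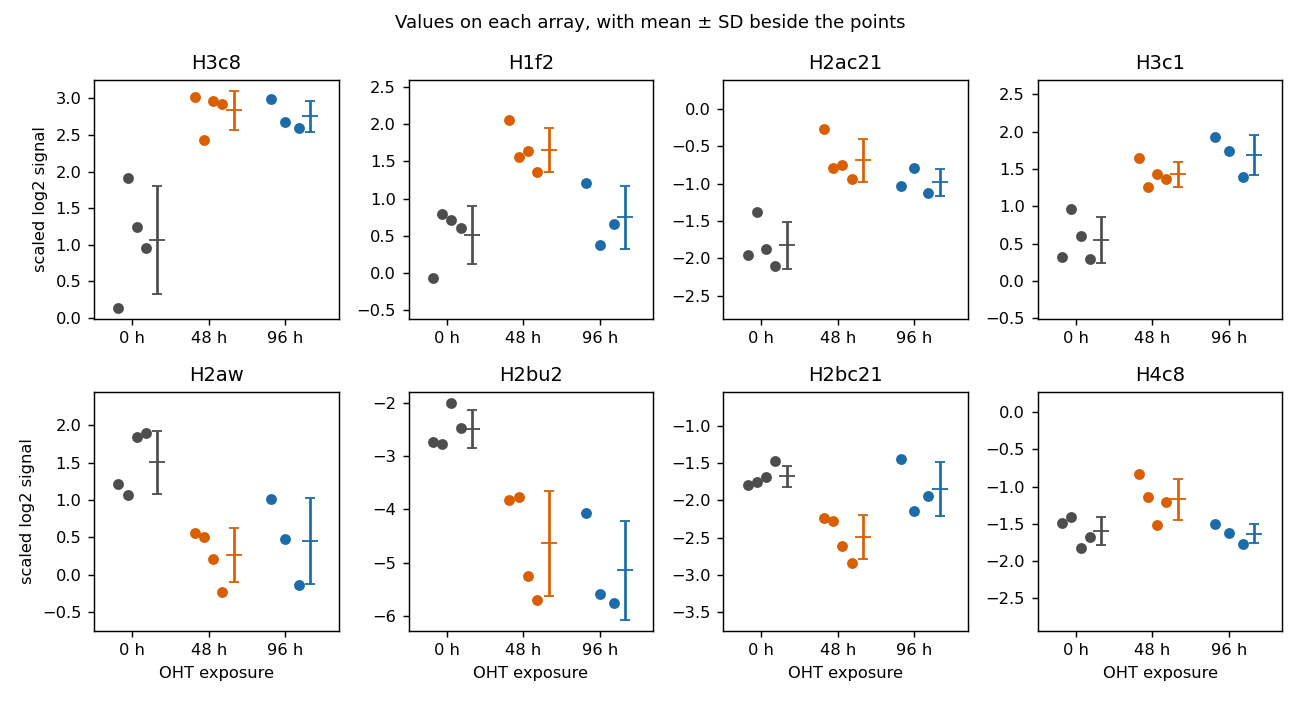
Scaled log2 signal (vertical axis) of 8 histone genes on each array before OHT and after 48 h and 96 h, with the mean and SD beside the points; each panel has its own range. H3c8, H2ac21 and H3c1 lie higher on all arrays after OHT, H2aw and H2bu2 lie lower, and the groups of H4c8 overlap.

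Histone H4, the partner of H3, had no call in either direction at 48 h. The unadjusted limma p was under 0.05 for 2 of 12 probes, and for 11336 of all 34273 probes. Of the 12, 11 differences were positive, and all lay between -0.01 and 0.85. H4c8 was at -1.48, -1.41, -1.83 and -1.67 at 0 h and at -0.84, -1.14, -1.51 and -1.21 at 48 h, which overlap (difference 0.43, adjusted p = 0.0835). The dimmer H4c14 probe differed by 0.85 (adjusted p = 0.0689) and the brighter one by 0.35. H4c17 had the smallest difference, -0.01. The tests of these probes had SEs between 0.15 and 0.29, and omission of single arrays gave 0 or 1 H4 call. The replicate numbers pair the 0 h and 48 h arrays and also equal their slide column. Pairing and slide position thus cannot be told apart. With the replicate block, H4c8 was called higher by array name number (limma adjusted p = 0.044) and by title number. With that block the number of higher H3 probes went from 6 to 4 by array name number and to 2 by title number. Whether H4 differs from the other types was not tested. In the promoter windows, all 21 of the windows of genes called higher held CCAAT, as did all 9 windows of uncalled genes of the other types and 2 of the 8 of uncalled H4 genes. Outside H4, called and uncalled genes alike held it.

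At 96 h against 0 h, 4 of 49 were higher (H3c8, H3c1, H2ac21 and H2bc22, described above) and 1 was lower (H2bu2), against 5.53% and 2.77% of all probes. With all arrays and the scaling used here, the members' 8.16% higher and 2.04% lower are near those shares. The members' median difference was 0.23, with 0.12 for all probes. In the deposited table it was 0.34, beside 0.40 at 48 h, and 9 were higher (18.4%, against 4.85% of all probes). By type the median was 0.65 for H3, 0.40 for H2b, 0.23 for H1, 0.09 for H2a and 0.05 for H4. For H3 and H2b the median stayed positive under every scaling, while those of H1, H2a and H4 fell below 0 with array-median scaling. With it, 2 members were higher and 4 lower (4.08% and 8.16%, against 0.887% and 7.91% of all probes). Other scalings moved the H2a median the opposite way, to 0.36 after quantile normalization, 0.33 after normexp with quantile normalization and 0.42 in the deposited table, where 5 H2a probes were higher. This comparison shares its 0 h arrays with the one at 48 h. In all, 5 members lay above all 0 h arrays (16.3% of all probes did) and 3 below (8.21%). Without 0 h replicate 2, 11 were higher (22.4%, against 6.89% of all probes). Without 0 h replicate 4 or any 1 array at 96 h, 2 were (4.08%, against 1.49% to 2.28%).

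Between 48 h and 96 h, no member was higher and 8 were lower (0% and 16.3%), against 4.67% and 5.11% of all probes. The unadjusted limma p was under 0.05 for 12 of 49 members and for 9262 of all 34273 probes. All arrays at 96 h were below all those at 48 h for 18 members, where 12.9% of all probes were, and above them for 1, where 14% were. Of the 8, 7 were the bright H2a probes, at -0.78 to -0.71. The raw intensities did not fall: the median over these probes was 157746 to 184502 at 48 h and 202000 to 208441 at 96 h, with all arrays at 96 h above all those at 48 h, and no spot of a gene probe was saturated. The 75th percentile that the values are scaled to was 108 to 147 at 48 h and 229 to 294 at 96 h. The 44 other probes as bright had a median difference of -0.61 (-0.91 to -0.34), and 42 of them were called lower. After quantile normalization the 7 probes differed by -0.13 to 0.00 and in the deposited table by -0.06 to 0.17, with none called in either. The fall of these H2a probes between 48 h and 96 h thus depends on the scaling and is shared by the other probes as bright. With 48 h replicate 1 or 4, or 96 h replicate 1 or 3, left out, none of the 8 was called. Of all probes, 1.72% to 2.7% were lower with these omissions. Without 48 h replicate 3 or 96 h replicate 2, 2 or 5 members were lower (4.08% or 10.2%, against 3.75% or 3.74% of all probes).

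**Figure D3:**
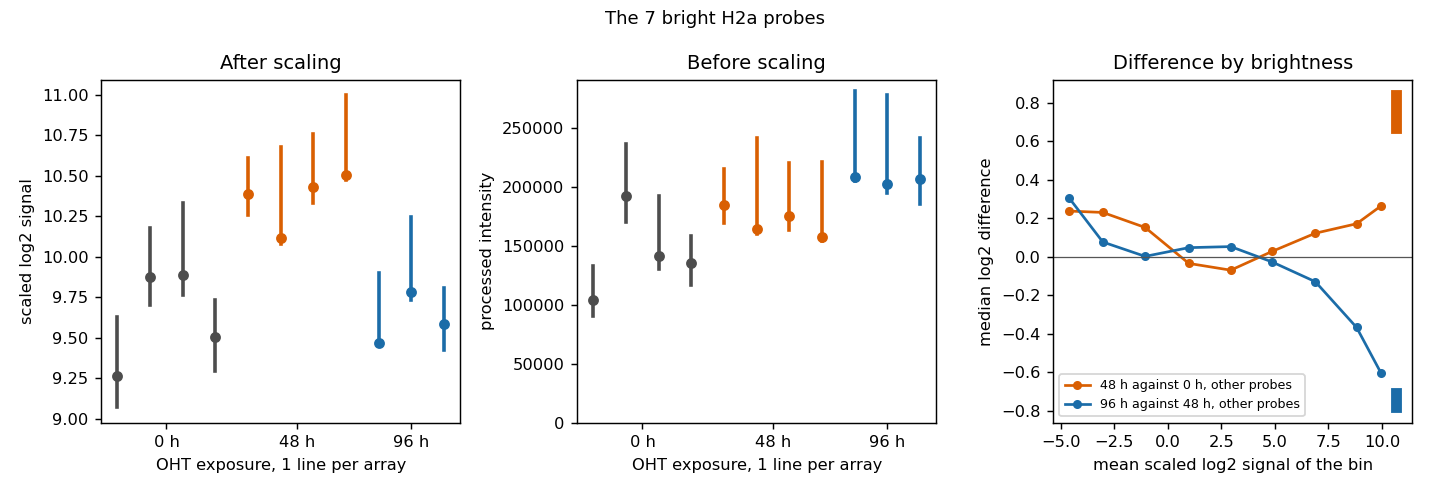
The 7 bright H2a probes as scaled log2 signal (left) and as processed intensity before scaling (middle), where each line spans the 7 probes on an array and the point is their median. Right, the median log2 difference of all other tested probes in bins of brightness, with the range of the 7 probes as a thick bar at the right edge: -0.78 to -0.71 between 48 h and 96 h beside -0.61 for the other probes as bright, and 0.67 to 0.84 between 0 h and 48 h beside 0.26.

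The last lower probe was 1 of the 2 for H4c9 (Hist1h4i). It was at 2.32 ± 0.18 (SD, n = 4) at 48 h and at 1.60 ± 0.09 (SD, n = 3) at 96 h, without overlap between arrays (log2 -0.72 ± 0.16 SE, limma adjusted p = 0.0237, lost on omission of any 96 h array or of replicate 1 or 4 at 48 h). The other H4c9 probe differed by -0.01, so the gene's probes disagree. H1f2 differed by -0.90 with no overlap and missed the threshold (adjusted p = 0.0556), and H2bc21 by 0.64 (adjusted p = 0.0667).

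Much of the spread in the members lay among the 0 h arrays. The median SD over arrays was 0.44 for members at 0 h, 0.20 at 48 h and 0.27 at 96 h, with 0.24, 0.22 and 0.21 for all probes. 0 h replicate 1 was the lowest of the 4 for 35 of 49 members and replicate 2 the highest for 31. The median of all members, centred on each probe's 0 h mean, was -0.37, 0.40, 0.20 and -0.21 on the 0 h arrays, 0.79, 0.50, 0.70 and 0.74 at 48 h and 0.51, 0.31 and 0.03 at 96 h. Every 48 h array was above every 0 h array, and the 96 h arrays overlap the 0 h arrays. On the same arrays, the mature neutrophil markers were at 1.22, 0.30, -1.12 and -0.79 at 0 h. The genes of S phase and DNA replication were at -0.39, 0.10, 0.31 and -0.02 at 0 h, at 0.16 to 0.30 at 48 h and at 0.29 to 0.36 at 96 h. Replicate 1 was thus the lowest for histone and S phase genes and the highest for neutrophil markers, and the part of either list in the histone differences was not tested.

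Within types, H3 probes moved together most closely over the 11 arrays, with a median pairwise correlation of 0.90 (0.77 to 0.99), and 0.88 after removal of the group means. The median was 0.72 for H4, 0.70 for H2a, 0.68 for H1 and 0.02 for H2b, whose pairs ran from -0.75 to 0.98. These are descriptions over arrays that share a slide and scaling. Probe sequences were not used, so probes of the same type, H4 included, may measure the same transcripts.

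**Figure D4:**
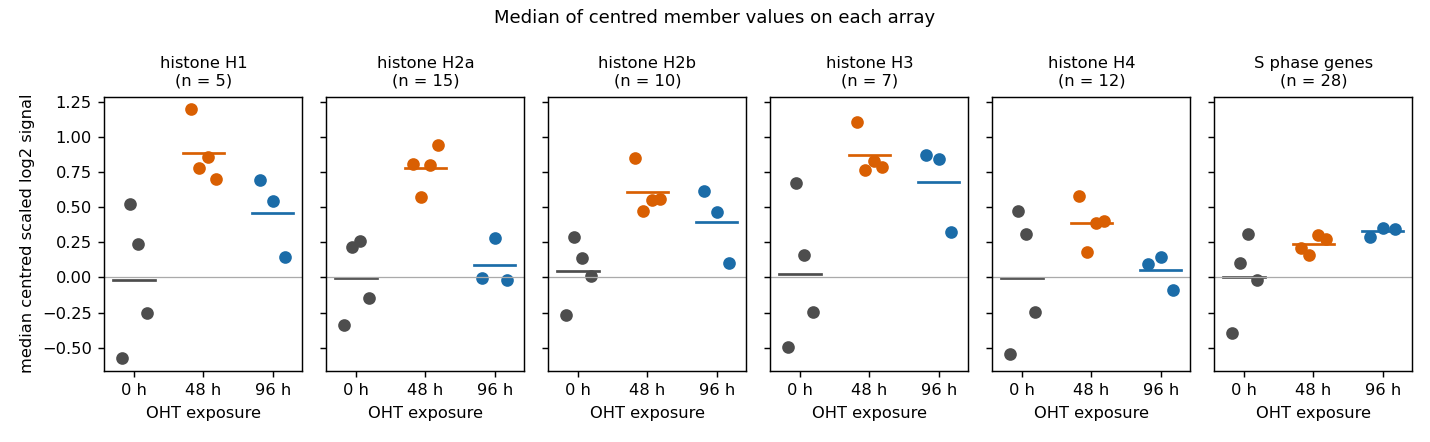
Median over the tested probes of each histone type, and over 28 S phase genes, on each array (vertical axis, scaled log2 signal centred on each probe's 0 h mean); points are arrays and lines are group means. For all 5 types the 48 h group lies above the 0 h group on average, and H3 stays the highest at 96 h, while the S phase genes sit between 0.16 and 0.36 after OHT.

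Lists of genes that act with the histones were followed in the same fit. Of 28 genes of S phase and DNA replication, 2 were higher at 48 h, Fen1, a flap endonuclease (0.83), and E2f1, a cell cycle transcription factor (0.49), with a list median of 0.21 and 9.32% of all probes higher. Of 17 genes for histone mRNA processing and turnover, 4 were lower and none higher, with 7.05% of all probes lower and a list median of -0.21: Cpsf2 (-0.56), a part of the 3′ end cleavage complex, Ncbp1 (-0.46), a cap-binding protein, Lsm1 (-0.36), which acts in histone mRNA decay, and Cstf2 (-0.33). Slbp itself differed by 0.16 and was not called. None of 7 tested regulators of histone gene transcription was called at 48 h, with Npat, an S phase coactivator of histone genes, at 0.21. Among 20 histone chaperones, Asf1a was lower (-0.62). Of 11 variant histones that are made outside S phase as well, the linker variant H1f0 was lower (-0.84, adjusted p = 0.00508) and H2aj was higher (0.84, adjusted p = 0.0164).

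At 96 h against 0 h, when 5.53% of all probes were higher, 1 of 28 S phase genes (Lig1, a DNA ligase, 0.79) and 2 of 20 chaperones (Chaf1a, a subunit of the replication-linked CAF-1 complex, 0.75, and Atrx, 0.53) were higher, and no gene for mRNA processing, transcription or variant histones was called. Between 48 h and 96 h, 4.67% of all probes were higher and 5.11% lower. Of the 17 processing genes, Cpsf2 and Cpsf3 rose by 0.45 and 0.41, and of the 20 chaperones, Cabin1 and Atrx rose by 0.69 and 0.55. Of the 7 transcription regulators, Ccne1, a cyclin that drives entry to S phase, fell by 0.56.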

How the data were processed

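RNA of 11 samples was hybridised to 1-colour Agilent arrays. Per the file headers, the deposited intensity used is the processed signal of Agilent Feature Extraction 11.0.1.1, corrected for background on its own array only, from a design built on mm9. Per the file headers, the deposited 0 or 1 flags mark saturation, outliers and spots well above background. A table of log2 values was deposited for the series, and the submitters' processing notes name limma. It matched normexp correction (offset 50) with quantile normalization of the scanner intensities at a correlation of 0.99998.

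Control spots and outlier spots (125 to 194 per array) were left out, log2 signal was taken minus each array's 75th percentile, and spots of a probe were averaged. Probes were named by accession, version removed, through a GRCm38.p6 RefSeq table, while the design is mm9, so no coordinates are given for probes; those of promoter windows are RefSeq's on GRCm38.p6. The 34273 probes that cleared background on 3 or more arrays were tested with limma 3.58.1 in R 4.3.3 (lmFit and eBayes, 3 groups, 8 residual degrees of freedom, 2-sided), with Benjamini-Hochberg adjustment over all of them and calls at an adjusted p under 0.05. The script was tested on simulated data. The number of arrays limits the precision. Figures used Python 3.11.15 and matplotlib 3.10.9.

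Members, lists and tests were chosen with earlier results of these data known. Genes were named by a rule: per histone type up to 6 called members by size, 2 more with the largest uncalled difference and the one with the smallest, and from other lists up to 4. Genes named beyond it were chosen after their values were seen. At 48 h and 0 h the replicate numbers paired the arrays (correlation of deviations 0.118 to 0.258). At 96 h those of the array names did (0.107 to 0.327) and those of the titles did not. The array name number is also the slide column of every array, so pairing and slide position cannot be told apart. Alternatives were other scalings, filters, blocks, fits and single-array omissions.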

Additional observations from a re-analysis of the deposited data

Results flagged for a closer look

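In 98 groups of 4 arrays (49 probes at 0 h and at 48 h), 5 held an array far from the other 3, where chance gives about 1 in 20 groups. H2ac8 was at -2.52 on 0 h replicate 1, with -1.83 as the next lowest array. H3c8 was at 2.43 on 48 h replicate 2, below 2.93 on the nearest array. The remaining 3 were high on 48 h replicate 1: H3c11 at 2.86 (next 2.34), H3c13 at 5.87 (next 5.43) and H4c3 at 4.08 (next 3.71).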

How the results depend on the processing

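At 48 h against 0 h, the members' median of 0.73 became 0.40 in the deposited table and 0.43 after normexp with quantile normalization. The 24 higher probes became 10 with dim probes kept in (19.2%, against 2.43% of all probes). They became 15 with only the groups compared (30.6%, against 7.69%) and 13 after quantile normalization (26.5%, against 6.17%). With array-median scaling they became 3 (6.12%, against 1.45%). Omission of 1 array gave 9 to 27 higher (18.4% to 55.1%, against 4.61% to 10.6% of all probes). It gave 1 to 3 lower (2.04% to 6.12%, against 3.44% to 8.58%). At 96 h against 0 h the median of 0.23 turned to -0.15 with array-median scaling. The 4 higher probes became 9 in the deposited table (18.4%, against 4.85% of all probes) and 2 with no filter (3.85%, against 1.02%). They became 2 with the replicate block by title number (4.08%, against 3.24%) or with array-median scaling (4.08%, against 0.887%). With only the groups compared, 0 were higher, against 0.811% of all probes. Without 1 array, 2 to 11 were higher (4.08% to 22.4%, against 1.49% to 6.89%). The 1 lower became 3 in the deposited table and after normexp (6.12%, against 4.79% and 5.06%). It became 4 with array-median scaling (8.16%, against 7.91%), 0 with no filter (against 0.347%) and 0 to 2 without 1 array. At 96 h against 48 h, 1 probe was higher when only probes above background on all arrays were tested (2.08%, against 7.7% of all probes). The 8 lower became 2 in the deposited table, after normexp and after quantile normalization (4.08%, against 5.6%, 5.91% and 5.15%). They became 1 with array-median scaling (2.04%, against 2.46%). With no filter and with the block by title number they became 0, against 1.09% and 2.49%. Without 1 array they became 0 to 9 (0% to 18.4%, against 1.72% to 5.18%). In the deposited table the brighter H2ac15 probe differed by 0.16 (adjusted p = 0.46) between 48 h and 96 h, opposite in sign. The replicate block by array name number gave 22 higher and 3 lower, 5 and 1, and 0 and 8 in the 3 comparisons, none of these 6 over 1.5 times from the main count. Of all probes, 10.3% and 7.74%, 7.22% and 4.15%, and 4.9% and 4.99% were called with it. By type, that block gave 4 in place of 6 higher H3 probes and 1 in place of 0 for H4 at 48 h, and 2 in place of 1 for H2b at 96 h. By title number, 1 H1, 2 H3 and 1 H4 probes were higher at 48 h. The cause of these changes was not tested. By design, more probes enter the adjustment with no filter, and fewer arrays enter with only the groups compared. Dim probes, such as H2bu2 after OHT, are limited by signal over background, and H1f3, H2bc23 and 1 H4f16 probe were too dim to test.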
